A study of Mus musculus with 6 samples.

Results

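The genes described here encode the enzymes that write and erase chemical marks on histones and DNA. They were chosen by symbol: the lysine demethylases (Kdm1 to Kdm8), the Kmt2, Kmt5, Setd and Ezh lysine methyltransferases, the Kat acetyltransferases, the Hdac and Sirt deacetylases, the Tet dioxygenases, and the Dnmt and Prmt methyltransferases of DNA and arginine. The symbols matched 81 of 26835 genes, of which 76 are annotated as protein coding. The other 5 are the antisense transcripts Dnmt3aos, Dnmt3bos and Kdm6bos and the pseudogenes Dnmt3l-ps1 and Kat2b-ps. RNA came from wild-type macrophages grown from the femur and tibia marrow of BALB/c mice aged 5 to 8 weeks. All cultures had spent 6 days with M-CSF, the growth factor that drives marrow cells into macrophages, at 25 ng/ml in medium holding 10% serum. K7M2-EV cultures then received 10 µg of vesicles shed by the mouse osteosarcoma line K7M2, and PBS cultures received saline alone, both for 24 h. Each group held 3 libraries, which the titles call biological replicates. The labels do not say what the 10 µg was measured on or whether animals were pooled, and no vesicles from other cells served as a control.

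DNA methyltransferases copy or newly place methyl groups on cytosine, and Tet enzymes oxidise them as a first step of removal. On histones, lysine and arginine methyltransferases, acetyltransferases, demethylases and deacetylases set marks that the transcription machinery reads. In macrophages these enzymes are known for setting which inflammatory genes can be switched on. Dnmt1 and Ezh2 are also known as genes that dividing cells express more than resting cells.

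Levels are given in FPKM, which divides fragments by transcript length and by the library total, so levels of different genes are compared per length. Genes that reached 1 FPKM in 3 or more of the 6 libraries were tested with limma on log2(FPKM + 1), and p-values were adjusted by Benjamini-Hochberg over all 13009 genes tested. A gene is called at an adjusted p under 0.05. Every log2 difference below is K7M2-EV minus PBS on that scale, where low genes change by less than in FPKM. Of the 81 genes 64 were tested and 17 were below the filter. The spacing of low values implied 22288738 to 24070368 reads in K7M2-EV libraries and 21435781 to 25783675 reads in PBS libraries. At 1 FPKM a 2-kb gene then rested on 42.9 to 51.6 reads, which sets a counting error of 15.3% or less.

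The cultures carried macrophage transcripts throughout. The 10 macrophage markers summed to 12865 to 14346 FPKM in K7M2-EV libraries and 4396 to 5317 FPKM in PBS libraries, and none was below 1 FPKM. The summed level of 5 lymphocyte markers was at most 1.29 FPKM, and that of 4 erythroid markers at most 0.56 FPKM. Of 9 neutrophil markers, Ly6g and Cxcr2 were at 0 in all K7M2-EV libraries, S100a8 and Camp were 2 of 3 tested and were called higher (3.32 and 1.38 on the log2 scale), and S100a8 made up most of the sum of 39.5 to 44.0 FPKM in K7M2-EV libraries, against 3.17 to 5.51 FPKM in PBS libraries. The 12 mesenchymal markers, led by the collagen gene Col1a1, summed to 210, 569 and 205 FPKM in K7M2-EV libraries and 123, 290 and 134 FPKM in PBS libraries, highest in replicate 2 of both groups. Their sum was higher with vesicles in each same-numbered pair, while the markers Runx2 and Sp7 (the second below the filter) were lower in each. A fit blocked on replicate called 4 of 6 tested markers higher and 1, Runx2, lower. Without the block 0 were called higher, and Runx2 was again called lower (-0.54, limma adjusted p = 0.00488).

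More of these enzyme genes were lower than higher with vesicles. Of the 64 tested, 4 were called higher (6.25%), 28 lower (43.75%) and 32 were not called. Among all genes tested 18.4% were called higher, 35.6% lower and 54.0% in either direction. The share of enzyme genes called in either direction stood near that of genes at large, with a smaller share higher and a larger share lower. Their median log2 difference was -0.12, and that of all genes tested was -0.12 as well. After median-of-ratios scaling, which brought the median of all genes to -0.0024, 12 enzyme genes were called higher (18.75%) and 16 lower (25%), beside 26.5% and 26.0% of all genes. After quantile normalization 9 were higher (14.1%) and 18 lower (28.1%), beside 24.1% and 25.2% of all genes. The size of the excess of lower over higher calls thus depends on the scaling, and some excess remained with each. In 30 enzyme genes every K7M2-EV library was below every PBS library and in 7 every one was above, where 42.0% and 21.8% of all genes tested were so placed. Dnmt3aos and Hdac9 passed the filter through the PBS libraries alone and therefore had to be lower to be tested. Without them the counts were 4 higher and 26 lower of 62. With both libraries of replicate 1, 2 or 3 left out, 16, 18 and 12 of 62 were called lower and 2, 7 and 3 higher. In bulk RNA, fewer cells of a type and less RNA per cell cannot be told apart.

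Most of the changes were small on the log2(FPKM + 1) scale. Of the 32 called, 18 differed by less than 0.5 in size. On that scale only Kmt5a was higher by 1 or more, and only Dnmt3a and Dnmt3aos were lower by 1 or more. Changes in mean FPKM were larger for low genes. Hdac9 was 3.45-fold lower, Ezh2 2.76-fold, Sirt1 2.46-fold and Hdac5 2.16-fold, while Kmt5a was 2.53-fold higher. Calls were recomputed under 16 alternatives (other scalings, filters and pseudocounts, the replicate number as a block, and left-out libraries). Of the 4 higher calls, Kdm4a alone was kept under all of them. Of the 28 lower calls, 13 were kept wherever the gene was tested: Dnmt1, Dnmt3a, Dnmt3aos, Tet3, Kdm1b, Kdm2b, Ezh2, Setd7, Sirt1, Hdac4, Hdac5, Hdac6 and Hdac9. Dnmt3aos was tested in 10 of the alternatives and Hdac9 in 9.

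**Figure D1:**
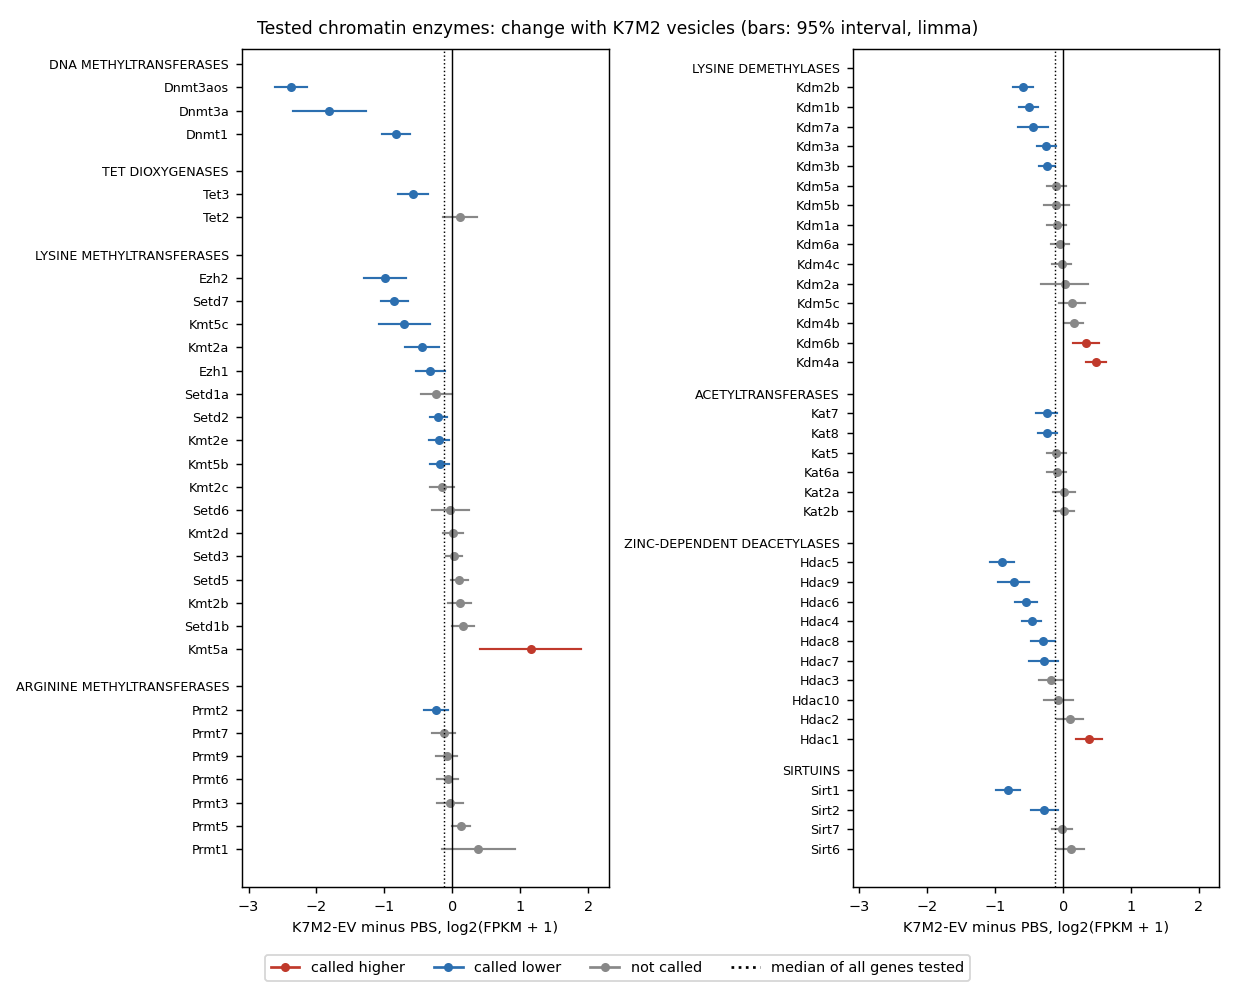
Log2 difference (K7M2-EV minus PBS, on log2(FPKM + 1)) for each of the 64 tested enzyme genes, grouped by class, with its 95% interval from limma. Red points are called higher (4), blue points lower (28) and grey points not called (32), the solid line is 0, and the dotted line is the median of all genes tested (-0.12).

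The DNA methyltransferases held the largest falls. All 3 tested transcripts of this class were lower with vesicles, also after median-of-ratios scaling, beside 35.6% and 26.0% of all genes tested. Their libraries did not overlap, where 42.0% of all genes tested were so placed. The antisense transcript Dnmt3aos passed the filter through the PBS libraries alone and had to be lower. Without it 2 of 2 were lower. Dnmt3a, which places methyl groups on unmethylated DNA, had 2.66, 3.46 and 2.25 FPKM in K7M2-EV cultures, against 9.85, 17.4 and 10.5 FPKM in PBS cultures. The 3 K7M2-EV libraries lay far below the lowest PBS library, and PBS replicate 2 stood well above the other PBS libraries. Dnmt3a averaged 2.79 ± 0.619 FPKM in K7M2-EV cultures and 12.6 ± 4.17 FPKM in PBS cultures (SD, n = 3 each), a 4.50-fold lower mean with vesicles. The log2 difference was -1.81 (95% interval -2.35 to -1.27, limma adjusted p = 0.000745). Replicate 2 also held the most mesenchymal transcript, and without both of its libraries the Dnmt3a difference was -1.69. On GRCm38 Dnmt3a lies on chromosome 12 at 3806007 to 3914443, on the plus strand.

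Dnmt3aos, an antisense transcript inside the Dnmt3a locus (chromosome 12, 3859293 to 3862244, minus strand), was lower still. It had 0.270, 0.423 and 0.540 FPKM in K7M2-EV cultures, against 7.0, 6.16 and 5.87 FPKM in PBS cultures. The log2 difference was -2.38 (95% interval -2.62 to -2.14, limma adjusted p = 8.91e-06). The PBS library highest in Dnmt3a (replicate 2) was not the highest in Dnmt3aos. The exons of Dnmt3aos and Dnmt3a share 133 bases, and since no source used here gives the strand setting of the counting, reads in the shared part cannot be assigned to one or the other. Of the 81 genes, 33 share exon bases with another annotated gene, most of all Setd1a, where a second gene on the same strand covers 51.9% of them. For Kdm3b, Prmt6 and Hdac4, transcripts of the opposite strand cover 24.6%, 23.4% and 22.4%.

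Dnmt1, the maintenance enzyme that copies methylation onto newly replicated DNA, was the most abundant of the class in K7M2-EV and in PBS cultures. It had 11.1, 11.5 and 10.7 FPKM in K7M2-EV cultures, against 18.0, 21.9 and 22.0 FPKM in PBS cultures. The groups were far apart, and the K7M2-EV libraries were close together. Dnmt1 averaged 11.1 ± 0.415 FPKM in K7M2-EV cultures and 20.6 ± 2.29 FPKM in PBS cultures, and fell by 0.83 on the log2 scale (limma adjusted p = 0.000353). Dnmt3a amounted to 24.0%, 30.0% and 21% of Dnmt1 in K7M2-EV libraries and to 54.7%, 79.3% and 47.4% in PBS libraries, so that the pair fell unequally. The level of Dnmt3a relative to Dnmt1 was lower in every K7M2-EV library than in any PBS library.

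The remaining DNA methyltransferase genes were below the filter. Dnmt3b, the other catalytic de novo enzyme, had 0.0970, 0.140 and 0.125 FPKM in K7M2-EV cultures, against 0.415, 0.360 and 0.260 FPKM in PBS cultures. Dnmt3l, a cofactor without catalytic activity, had 0.216, 0.265 and 0.357 FPKM in K7M2-EV cultures, against 0.0206, 0.0530 and 0.0352 FPKM in PBS cultures. Both stayed under 1 FPKM everywhere, but their libraries did not overlap and they differed in opposite directions. The Dnmt3l values rest on 16, 18 and 26 implied reads in K7M2-EV libraries and on 1, 3 and 3 in PBS libraries. With no filter the log2 difference was 0.30 for Dnmt3l (limma adjusted p = 0.0063) and -0.26 for Dnmt3b (limma adjusted p = 0.018). Dnmt3c and Dnmt3bos were listed at 0 in all K7M2-EV libraries and at 0.0350 and 0.108 FPKM at most in PBS libraries, and the pseudogene Dnmt3l-ps1 did not exceed 0.181 FPKM in any library.

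Dnmt1 and Ezh2 shared a motif near their start sites. The E2F motif TTTGGCGC, the letters bound by the E2F factors that drive genes of DNA replication, was searched on both strands in RefSeq windows (GRCm38.p6) of 250 bases before to 50 after each start site. Windows were found for 64 of the 81 genes, 90 windows in all. This motif stood in 2 of the 90, one of the 3 windows of Dnmt1 and the single window of Ezh2, and in 0.514% of all 32851 windows. The letters were chosen after other motifs had been searched, and a match is a description, not a site in use. The windows are shown 5′ to 3′ on the strand of the gene, with the motif in capitals, for Dnmt1 (chr9:20952574-20952873, minus strand) and Ezh2 (chr6:47594981-47595280, minus strand).
Dnmt1: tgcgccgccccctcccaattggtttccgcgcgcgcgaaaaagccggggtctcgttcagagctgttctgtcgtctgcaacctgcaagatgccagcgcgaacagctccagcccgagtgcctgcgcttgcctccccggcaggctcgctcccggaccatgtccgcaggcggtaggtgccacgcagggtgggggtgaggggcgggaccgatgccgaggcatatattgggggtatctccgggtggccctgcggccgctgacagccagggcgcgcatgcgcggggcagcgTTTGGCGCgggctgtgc
Ezh2: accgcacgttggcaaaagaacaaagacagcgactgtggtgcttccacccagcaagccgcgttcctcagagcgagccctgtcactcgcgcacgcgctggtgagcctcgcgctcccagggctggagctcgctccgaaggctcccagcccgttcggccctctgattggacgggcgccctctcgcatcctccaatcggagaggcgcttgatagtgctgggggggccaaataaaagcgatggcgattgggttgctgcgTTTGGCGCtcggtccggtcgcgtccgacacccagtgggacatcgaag
The motif begins at base 34 of the transcript side in Dnmt1 and at base 4 in Ezh2, counted from the annotated start. The E2F motif TTTCCCGC stood in 2 windows (Kmt5c and Sirt4) and in 1.07% of all windows. The looser TTTNNCGC, which includes both, stood in 6 of the 90 windows (6.67%) and in 5.17% of all.

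The Tet enzymes divided. Tet3, the most abundant of the 3 genes, had 14.6, 12.2 and 13.6 FPKM in K7M2-EV cultures, against 22.6, 18.7 and 20.5 FPKM in PBS cultures. The groups did not overlap, and Tet3 fell by 0.58 (limma adjusted p = 0.00216). Tet2, known for restraining inflammatory genes in macrophages, had 4.30, 3.12 and 3.52 FPKM in K7M2-EV cultures, against 3.53, 3.07 and 3.18 FPKM in PBS cultures. These libraries overlapped, and the difference of 0.12 was not called (95% interval -0.13 to 0.37, limma adjusted p = 0.367). Tet2 amounted to 29.5%, 25.5% and 25.9% of Tet3 in K7M2-EV libraries and to 15.6%, 16.4% and 15.5% in PBS libraries. Tet1 was near the limit of detection, at 0.00972 to 0.0222 FPKM in K7M2-EV cultures and 0.0143 to 0.0304 FPKM in PBS cultures.

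Among lysine methyltransferases, 8 of 17 tested genes were lower, 1 was higher and 8 were not called, beside 35.6% lower and 18.4% higher among all genes. After median-of-ratios scaling the split was 4 lower (23.5%, beside 26.0% of all genes) and 5 higher (29.4%, beside 26.5%), close to genes at large, and 5 were lower when any 1 of the K7M2-EV libraries was left out. Ezh2, the catalytic subunit of Polycomb repressive complex 2 and a writer of a silencing mark on histone H3, had 1.23, 1.49 and 1.25 FPKM in K7M2-EV cultures, against 2.81, 4.27 and 3.85 FPKM in PBS cultures. It averaged 1.32 ± 0.145 FPKM with vesicles and 3.64 ± 0.750 FPKM with PBS, a 2.76-fold lower mean, and the log2 difference was -0.99 (limma adjusted p = 0.000978). The groups did not overlap, and the PBS libraries were spread more widely than the K7M2-EV libraries. Ezh1, the paralogue found more in resting cells, was lower by 0.33 (limma adjusted p = 0.0212), a call lost after median-of-ratios scaling (adjusted p = 0.121) and without any single library except PBS replicate 2. Ezh2 amounted to 32.2%, 40.5% and 34.3% of Ezh1 in K7M2-EV libraries and to 50.8%, 101% and 76.6% in PBS libraries. On GRCm38 Ezh2 lies on chromosome 6 at 47530139 to 47595341, on the minus strand, and Dnmt1 on chromosome 9 at 20907209 to 20959888, also on the minus strand.

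Setd7, which adds a single methyl group to histone H3 and to other proteins, had 4.04, 4.94 and 3.90 FPKM in K7M2-EV cultures, against 8.70, 8.72 and 8.23 FPKM in PBS cultures. It fell by 0.86 (limma adjusted p = 0.000278), with a wide gap between the groups. Kmt5c, which extends methylation on histone H4, had 2.1, 1.10 and 1.91 FPKM in K7M2-EV cultures, against 2.98, 3.55 and 3.53 FPKM in PBS cultures. The groups did not overlap, and Kmt5c fell by 0.70 (limma adjusted p = 0.00920). Without both libraries of replicate 3 its adjusted p was 0.0735.

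Kmt5a, the enzyme that places the first methyl group at that position of histone H4, went the other way. It had 10.9, 10.5 and 5.88 FPKM in K7M2-EV cultures, against 2.73, 5.54 and 2.50 FPKM in PBS cultures. K7M2-EV replicate 3 and PBS replicate 2 came close to each other without overlapping. The log2 difference was 1.15 (95% interval 0.41 to 1.90, limma adjusted p = 0.0191), and it was positive in 3 of 3 pairs of same-numbered libraries. The call rests on few libraries. Its adjusted p was 0.0651 without K7M2-EV replicate 1, 0.0568 without K7M2-EV replicate 2, 0.0667 without PBS replicate 1 and 0.0679 without PBS replicate 3.

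Kmt2d, a large writer at enhancers, was the most abundant of the 64 tested genes in K7M2-EV cultures, while Dnmt1 and Tet3 stood slightly above it in PBS cultures. It had 20.4, 18.9 and 21.8 FPKM in K7M2-EV cultures, against 20.5, 19.8 and 20.1 FPKM in PBS cultures, with a difference of 0.01 (95% interval -0.14 to 0.16, limma adjusted p = 0.862). Its relative Kmt2a was lower by 0.45 (limma adjusted p = 0.0103), though the adjusted p was 0.0734 with replicate 2 of both groups left out. Setd2, Kmt2e and Kmt5b were lower by 0.18 to 0.21. With the replicate number as a block, which gave 4 enzyme genes higher and 26 lower beside 19.2% and 36.8% of all genes, Kmt2e (limma adjusted p = 0.0508) and Kmt5b (limma adjusted p = 0.0647) were no longer called. After quantile normalization Kmt5b stood at 0.0032 (limma adjusted p = 0.973), and Setd2 was no longer called after median-of-ratios scaling. Setd1a, Kmt2c, Setd6, Setd3, Setd5, Kmt2b and Setd1b completed the genes not called, at -0.23 to 0.16. Of these, Setd1a was called lower without PBS replicate 1 (limma adjusted p = 0.0332), and Setd1b higher without K7M2-EV replicate 2 (limma adjusted p = 0.0357) and after median-of-ratios scaling (limma adjusted p = 0.0128). Setd4 was below the filter, at 0.301 to 0.406 FPKM in K7M2-EV cultures and 0.418 to 0.435 FPKM in PBS cultures.

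The lysine demethylases moved in both directions, with 2 higher, 5 lower and 8 not called of 15 tested. After median-of-ratios scaling 4 were higher and 3 lower. Both splits stood near those of all genes (18.4% higher and 35.6% lower, and 26.5% and 26.0% with that scaling). Kdm4a, which removes methyl groups from histone H3, had 8.94, 8.10 and 9.07 FPKM in K7M2-EV cultures, against 6.12, 6.13 and 5.65 FPKM in PBS cultures. It rose by 0.48 (limma adjusted p = 0.000913), with the libraries of each group close together. Kdm6b, an eraser of the Polycomb mark known to be induced by inflammatory stimuli in macrophages, had 4.69, 4.95 and 5.07 FPKM in K7M2-EV cultures, against 3.90, 3.97 and 3.20 FPKM in PBS cultures. It was higher by 0.34 (95% interval 0.14 to 0.53, limma adjusted p = 0.0120), though without both libraries of replicate 3 the adjusted p was 0.0864. Kdm6a, the X-linked eraser of the same mark, was not called (-0.05).

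Kdm2b, a demethylase that also brings a Polycomb complex to CpG islands, had 1.12, 1.18 and 1.18 FPKM in K7M2-EV cultures, against 2.26, 2.13 and 2.38 FPKM in PBS cultures. It fell by 0.59 (limma adjusted p = 0.000368). Kdm1b, a flavin-dependent demethylase, had 1.22, 1.17 and 1.23 FPKM in K7M2-EV cultures, against 2.07, 2.21 and 2.13 FPKM in PBS cultures. It fell by 0.51 (limma adjusted p = 0.000557), and in both genes the spread within a group was small beside the gap. The second flavin-dependent gene, Kdm1a, was not called (-0.09, 95% interval -0.23 to 0.05). Kdm7a, the most abundant demethylase gene by the mean over all libraries but below Kdm5c in K7M2-EV cultures, had 9.81, 9.95 and 9.12 FPKM in K7M2-EV cultures, against 15.4, 12.1 and 13 FPKM in PBS cultures. It fell by 0.44 (limma adjusted p = 0.00693), though the adjusted p was 0.076 with replicate 3 of both groups left out. Kdm3a and Kdm3b were lower by 0.25 and 0.24, and neither was called after median-of-ratios scaling.

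The other demethylase genes gave no call with all libraries. Kdm5a, Kdm5b, Kdm1a, Kdm6a, Kdm4c, Kdm2a, Kdm5c and Kdm4b lay between -0.10 and 0.16. Kdm2a had 7.0, 6.89 and 4.55 FPKM in K7M2-EV cultures, the last library well below the others, and averaged 5.92 ± 0.038 FPKM in PBS cultures. Without that library Kdm2a was called higher (0.20, limma adjusted p = 0.0328), against 0.03 with it. Kdm5c was called higher without PBS replicate 2 (0.20, limma adjusted p = 0.0367). Kdm8 was below the filter, with 0.675, 0.699 and 0.895 FPKM in K7M2-EV cultures, against 0.843, 1.10 and 1.27 FPKM in PBS cultures. Kdm4d and Kdm5d had at most 3 implied reads in a library, and Kdm6bos was detected in a single K7M2-EV library at 0.161 FPKM.

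**Figure D2:**
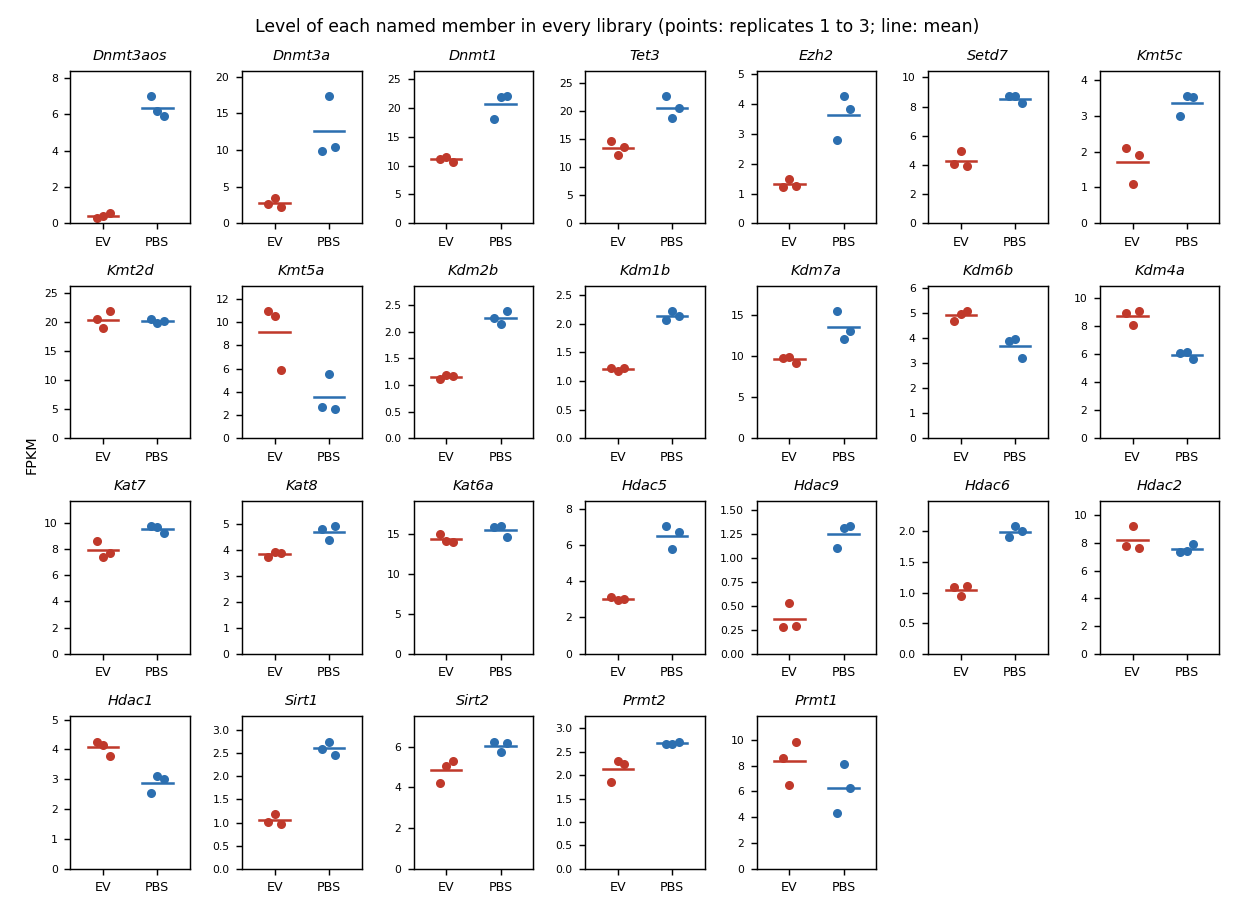
FPKM of the 26 named enzyme genes in every library, K7M2-EV (red, EV) left of PBS (blue), 1 panel per gene with an axis from 0; points are replicates 1 to 3 from left to right and the line is the mean. The groups are separated in most panels, as for Hdac5 (2.94 to 3.14 FPKM with vesicles, 5.81 to 7.04 FPKM with PBS), and overlap for Kmt2d, Kat6a, Hdac2 and Prmt1.

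The tested acetyltransferases changed by 0.24 or less in size. Of 6 tested, 2 were lower (33.3%, near the 35.6% of all genes tested). None was higher (0 also at an unadjusted limma p under 0.05), beside 18.4% of all genes. After median-of-ratios scaling none was called in either direction (at an unadjusted limma p under 0.05 none either), beside 26.0% lower and 26.5% higher among all genes. Kat7, which acetylates histone H3, had 8.65, 7.45 and 7.72 FPKM in K7M2-EV cultures, against 9.76, 9.68 and 9.23 FPKM in PBS cultures. It was lower by 0.24 (limma adjusted p = 0.0190, and 0.211 after median-of-ratios scaling). Kat8, which acetylates histone H4, had 3.71, 3.93 and 3.90 FPKM in K7M2-EV cultures, against 4.82, 4.38 and 4.91 FPKM in PBS cultures. It was lower by 0.23 (limma adjusted p = 0.0153, and 0.184 after median-of-ratios scaling). Each call was also lost without single libraries, for Kat7 K7M2-EV replicates 2 and 3 and PBS replicates 1 and 2, and for Kat8 K7M2-EV replicate 1 and PBS replicate 3.

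Kat6a, the most abundant acetyltransferase gene, had 15.0, 14.2 and 14.0 FPKM in K7M2-EV cultures and averaged 15.5 ± 0.786 FPKM in PBS cultures. The groups overlapped and the difference of -0.10 was not called (limma adjusted p = 0.191). Kat5, Kat2a and Kat2b lay between -0.10 and 0.02 and were not called, with 95% intervals that stayed between -0.24 and 0.17. Kat6b was below the filter at 0.716 to 0.760 FPKM in K7M2-EV cultures and 0.826 to 0.968 FPKM in PBS cultures. The pseudogene Kat2b-ps had 0.181 to 0.334 FPKM in K7M2-EV cultures and 0.128 to 0.360 FPKM in PBS cultures, and reads could be split between it and Kat2b.

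The zinc-dependent deacetylases differed by class. Class I genes (Hdac1, Hdac2, Hdac3, Hdac8) encode the nuclear enzymes of corepressor complexes, and class IIa genes (Hdac4, Hdac5, Hdac7, Hdac9) encode proteins that shuttle between nucleus and cytoplasm and bind MEF2 transcription factors. All 4 class IIa genes were lower, with a median of -0.60, beside 35.6% of all genes tested. Hdac9 passed the filter through the PBS libraries alone and had to be lower, and without it 3 of 3 were lower. After median-of-ratios scaling 3 of 4 were lower, beside 26.0% of all genes. On the log2(FPKM + 1) scale Hdac5 fell most (-0.90, against -0.73 for Hdac9). In mean FPKM Hdac9 fell most (3.45-fold, against 2.16-fold for Hdac5). Of the 4 class I genes 1 was higher and 1 lower, and in class IIb (Hdac6, Hdac10) 1 of 2 was lower. Summed over the class, class IIa genes had 6.45, 6.85 and 6.50 FPKM in K7M2-EV cultures, against 12.9, 12.2 and 12.8 FPKM in PBS cultures. Class I genes summed to 17.3, 19.3 and 16.8 FPKM in K7M2-EV cultures and to 16.3, 17.5 and 17.9 FPKM in PBS cultures. The class IIa sums were well separated, while the class I sums overlapped.

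**Figure D3:**
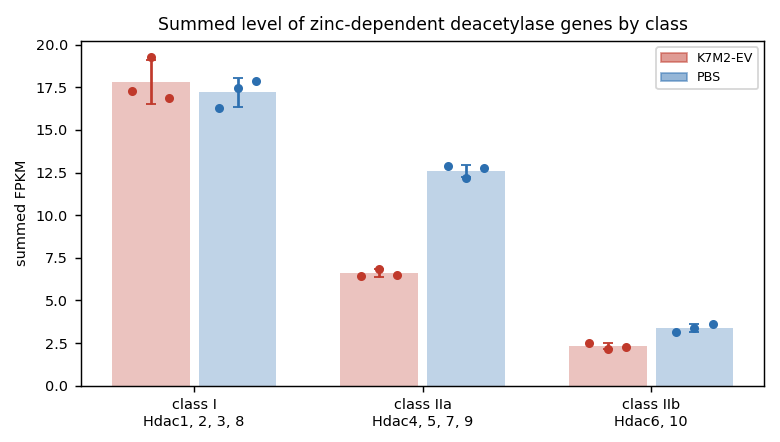
Summed FPKM of the zinc-dependent deacetylase genes by class, K7M2-EV (red) left of PBS (blue); bars are means from 0, error bars are the SD of 3 libraries, and points are libraries. Class IIa averaged 6.60 ± 0.22 FPKM with vesicles and 12.6 ± 0.37 FPKM with PBS, class I averaged 17.8 ± 1.29 FPKM with vesicles and 17.2 ± 0.84 FPKM with PBS, and class IIb averaged 2.31 FPKM with vesicles and 3.37 FPKM with PBS.

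Hdac5 had 3.14, 2.94 and 3.00 FPKM in K7M2-EV cultures, against 7.04, 5.81 and 6.74 FPKM in PBS cultures. It fell by 0.90 (limma adjusted p = 0.000143), with no overlap and a narrow spread with vesicles. Hdac9 had 0.279, 0.525 and 0.284 FPKM in K7M2-EV cultures, against 1.11, 1.32 and 1.33 FPKM in PBS cultures, and fell by 0.73 (limma adjusted p = 0.000947). It entered the test only through its PBS libraries. Hdac4 averaged 1.78 ± 0.0811 FPKM in K7M2-EV cultures and 2.84 ± 0.0802 FPKM in PBS cultures, and fell by 0.47 (limma adjusted p = 0.000794). Hdac7 was lower by 0.29 (limma adjusted p = 0.0308). That call was lost after median-of-ratios scaling (adjusted p = 0.0884), which leaves 3 class IIa genes called lower, and without any single library except PBS replicate 3.

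The start of Hdac5 carried the MEF2 motif searched, CTA and TAG with any 4 bases between them. This pattern is looser than the site of the MEF2 factors that class IIa deacetylases bind. Among the 90 windows the motif stood in 4 (4.44%), those of Dnmt3aos, Hdac2, Hdac5 and Hdac9, near the 3.69% of all windows. The Hdac5 window (chr11:102230123-102230422, minus strand, 250 bases before to 50 after the start site) is shown 5′ to 3′ with the motif in capitals. Hdac5 was chosen as the most abundant class IIa gene, with the largest fall on the log2(FPKM + 1) scale. In mean FPKM Hdac9 fell further (3.45-fold, against 2.16-fold for Hdac5).
Hdac5: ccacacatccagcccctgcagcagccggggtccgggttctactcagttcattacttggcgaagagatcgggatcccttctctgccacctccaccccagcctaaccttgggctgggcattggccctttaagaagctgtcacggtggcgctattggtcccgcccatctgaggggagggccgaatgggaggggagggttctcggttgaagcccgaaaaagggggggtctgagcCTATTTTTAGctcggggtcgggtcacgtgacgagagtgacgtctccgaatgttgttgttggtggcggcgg
The NF-κB motif searched, GGGA and TTTCC with any base between them, was in 0 of the 90 windows and in 0.411% of all windows.

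Hdac1, a catalytic subunit shared by the main corepressor complexes, was the single deacetylase gene called higher. It had 4.26, 4.14 and 3.78 FPKM in K7M2-EV cultures, against 2.52, 3.12 and 3.00 FPKM in PBS cultures, and rose by 0.39 (limma adjusted p = 0.00706). Without both libraries of replicate 1 the adjusted p was 0.0516. Its near relative Hdac2, the most abundant deacetylase gene, had 7.81, 9.21 and 7.62 FPKM in K7M2-EV cultures, against 7.33, 7.46 and 7.93 FPKM in PBS cultures. The libraries overlapped, and the difference of 0.10 was not called (95% interval -0.09 to 0.29, limma adjusted p = 0.311), though it was after median-of-ratios scaling (0.23, adjusted p = 0.0402). Hdac5 amounted to 73.6%, 71.0% and 79.3% of Hdac1 in K7M2-EV libraries and to 279%, 186% and 225% in PBS libraries, so the order of these genes by level was opposite in the groups.

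Hdac6, a mainly cytoplasmic enzyme that deacetylates tubulin, had 1.10, 0.937 and 1.10 FPKM in K7M2-EV cultures, against 1.90, 2.08 and 2.00 FPKM in PBS cultures. It fell by 0.55 (limma adjusted p = 0.000699). Hdac8 was lower by 0.30 (limma adjusted p = 0.0154), a call lost after median-of-ratios scaling (adjusted p = 0.054) and without K7M2-EV replicate 1 or PBS replicate 1. Hdac3, the partner of the NCoR corepressors, was not called, although its libraries did not overlap (-0.19, limma adjusted p = 0.0599, and 0.0265 without PBS replicate 1), and neither was Hdac10 (-0.07). Hdac11, the class IV gene, was below the filter at 0.0402 to 0.0884 FPKM in K7M2-EV cultures and 0.136 to 0.449 FPKM in PBS cultures.

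Sirtuins are deacetylases that consume NAD. Sirt1, the nuclear member known to deacetylate NF-κB, had 1.02, 1.19 and 0.962 FPKM in K7M2-EV cultures, against 2.59, 2.75 and 2.47 FPKM in PBS cultures. It averaged 1.06 ± 0.12 FPKM with vesicles and 2.60 ± 0.143 FPKM with PBS, a 2.46-fold lower mean, and the log2 difference was -0.81 (limma adjusted p = 0.000190). The groups were far apart. Sirt2, a mainly cytoplasmic enzyme and the most abundant sirtuin gene, had 4.20, 5.05 and 5.28 FPKM in K7M2-EV cultures, against 6.26, 5.76 and 6.17 FPKM in PBS cultures. It was lower by 0.28 (limma adjusted p = 0.0295), a call lost after median-of-ratios scaling (adjusted p = 0.192) and without K7M2-EV replicate 1, PBS replicate 1 or PBS replicate 3. Sirt6 and Sirt7, both nuclear, were not called (0.11 and -0.02).

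The mitochondrial sirtuin genes were below the filter. Sirt3 had 0.454 to 0.710 FPKM in K7M2-EV cultures and 0.865 to 1.05 FPKM in PBS cultures. Sirt5, the mitochondrial desuccinylase, had 0.335 to 0.354 FPKM in K7M2-EV cultures and 0.590 to 0.726 FPKM in PBS cultures, a log2 difference of -0.29 with no filter (limma adjusted p = 0.012). Sirt4 overlapped between the groups, at 0.827 to 0.944 FPKM in K7M2-EV cultures and 0.893 to 1.39 FPKM in PBS cultures.

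The arginine methyltransferases gave few calls. Of 7 tested 1 was lower (14.3%) and 0 higher, beside 35.6% and 18.4% of all genes tested. After median-of-ratios scaling that call was lost and Prmt5 was called higher. Prmt1, the main enzyme of asymmetric arginine methylation and the most abundant of the class, had 8.61, 6.50 and 9.86 FPKM in K7M2-EV cultures, against 4.33, 8.12 and 6.26 FPKM in PBS cultures. Its libraries overlapped and varied widely within each group, and the difference of 0.38 was not called (95% interval -0.15 to 0.92, limma adjusted p = 0.189). Without both libraries of replicate 2, which held the most mesenchymal transcript, Prmt1 was called higher (0.72, limma adjusted p = 0.0233). Prmt2, a weakly active coactivator, had 1.86, 2.29 and 2.23 FPKM in K7M2-EV cultures, against 2.66, 2.66 and 2.72 FPKM in PBS cultures. It was lower by 0.24 (limma adjusted p = 0.0332). Of the single libraries, leaving out any but K7M2-EV replicate 2 ended that call, with adjusted p up to 0.0943. Prmt3, Prmt5, Prmt6, Prmt7 and Prmt9 lay between -0.13 and 0.13.

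Partners and related enzymes were described from 9 lists. Of 113 tested genes 11 were higher (9.73%), 53 lower (46.9%) and 49 not called, with a median of -0.18, beside 18.4% higher and 35.6% lower among all genes. After median-of-ratios scaling 22 were higher (19.5%, beside 26.5% of all genes) and 33 lower (29.2%, beside 26.0%). After quantile normalization 19 were higher (16.8%, beside 24.1%) and 30 lower (26.5%, beside 25.2%). With these scalings the lower share stood near that of genes at large, and the higher share stayed below it. Without the 7 that passed the filter through the PBS libraries alone and had to be lower, 46 of 106 were lower. With both libraries of replicate 1, 2 or 3 left out, 29 of 106, 35 of 105 and 15 of 105 were lower. Among Polycomb subunits, which work with Ezh2 or read its mark, 2 of 21 were higher and 11 lower (52.4%). Without the 3 that passed the filter through PBS alone, 8 of 18 were lower. After median-of-ratios scaling 7 of 21 were lower (33.3%, beside 26.0% of all genes), and after quantile normalization 6 (28.6%, beside 25.2%). The largest changes were in Cbx6 (-1.17) and Phf19 (-0.77), a reader and an Ezh2 cofactor (the second passed the filter through PBS alone), and, among the higher, in Bmi1 (0.35), a subunit of Polycomb repressive complex 1. Subunits shared by the Kmt2 complexes had 5 of 11 lower, led by Dpy30 (-0.48) and Rbbp5 (-0.45), and 3 of 11 after median-of-ratios scaling (27.3%).

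Among writers and erasers outside the chosen symbols, Dot1l and Padi2 fell by more than 1. Dot1l, the methyltransferase of the histone H3 core, averaged 4.66 ± 0.154 FPKM in K7M2-EV cultures and 13.3 ± 0.595 FPKM in PBS cultures, and fell by 1.33 (limma adjusted p = 7.83e-06). The list of other lysine methyltransferases had 10 of 16 lower and 1 higher, beside 35.6% and 18.4% of all genes tested. Suv39h1 stood at -0.63 and Smyd5 at 0.51. Lower calls numbered 7 of 16 after median-of-ratios scaling (43.8%, beside 26.0% of all genes). They numbered 5 of 16 after quantile normalization (31.2%, beside 25.2%), and 7 of 13 without the 3 genes that passed the filter through PBS alone. Padi2, which converts arginine to citrulline, averaged 0.158 ± 0.046 FPKM in K7M2-EV cultures and 2.88 ± 0.437 FPKM in PBS cultures, and fell by 1.74 (limma adjusted p = 3.06e-05). It was 1 of 2 tested genes in its list, and it passed the filter through its PBS libraries alone, so it could be tested only as lower. Other demethylases had 4 of 6 lower, led by Jmjd1c (-0.81) and Riox1 (-0.71), and 1 higher, Jmjd6 (0.38). Other acetyltransferases had 4 of 7 lower, led by the nuclear receptor coactivators Ncoa3 (-0.54) and Ncoa1 (-0.47).

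Partners of the deacetylases and of DNA methylation complete the lists. Deacetylase complex subunits had 4 of 20 higher (20%) and 6 lower (30%), near the 18.4% and 35.6% of all genes tested. Mta2 (0.39), a NuRD subunit, and Sap30 (0.22), a Sin3 subunit, were higher, as were Tbl1x (0.22) and Sin3b (0.15). The Sap30 call was lost under 10 of 16 alternatives. Rcor1 (-0.47) and Mta3 (-0.33), the second also of NuRD, were lower, as were Rcor3 (-0.32), Chd3 (-0.24), Mta1 (-0.23) and Chd4 (-0.23). Bromodomain readers of acetylation had 3 of 19 higher (15.8%), led by Sp100 (0.78) and Brpf1 (0.38). Of these readers 7 were lower (36.8%), led by Atad2 (-1.28) and Brd1 (-0.32). Both shares stood near those of all genes. Median-of-ratios scaling turned the reader counts round, to 8 higher (42.1%) and 4 lower (21.1%), beside 26.5% and 26.0% of all genes. Of the DNA methylation partners 5 of 11 were lower (45.5%), and 3 of 11 after median-of-ratios scaling (27.3%, beside 26.0% of all genes). Uhrf1, which guides Dnmt1 to newly replicated DNA, averaged 4.95 ± 0.948 FPKM in K7M2-EV cultures and 15.9 ± 4.55 FPKM in PBS cultures, and fell by 1.48 (limma adjusted p = 0.0019). Uhrf2 fell by 0.59.

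Genes of the cell cycle were lower together with Dnmt1 and Ezh2. All 27 tested genes of the DNA replication list were called lower, with a median of -0.92, and all 24 of the mitosis list, with a median of -1.71, beside 35.6% of all genes tested. Of these, 3 replication and 5 mitosis genes passed the filter through the PBS libraries alone and had to be lower; without them the counts were 24 of 24 and 19 of 19. With both libraries of replicate 1, 2 or 3 left out, 24 of 24, 21 of 23 and 13 of 24 tested replication genes and 19 of 19, 15 of 15 and 18 of 19 tested mitosis genes were lower. Rrm2 (-2.25) and Pcna (-2.16) led the replication list, and Mki67 (-2.37) and Kif11 (-2.33) the mitosis list. Replication genes summed to 92.6, 115 and 94.0 FPKM in K7M2-EV cultures, against 242, 311 and 316 FPKM in PBS cultures. Mitosis genes summed to 33.0, 67.5 and 34.6 FPKM in K7M2-EV cultures, against 171, 276 and 224 FPKM in PBS cultures. The part of cell division in the levels of Dnmt1 and Ezh2 was not tested.

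Set against its mean in PBS cultures, Dnmt1 stood at 53.7%, 55.8% and 51.8% in K7M2-EV libraries and at 87.2%, 106% and 107% in PBS libraries. Ezh2 stood at 33.7%, 40.8% and 34.2% in K7M2-EV libraries and at 77.2%, 117% and 106% in PBS libraries. Mki67, a marker of dividing cells, stood at 13.4%, 23.7% and 15.3% in K7M2-EV libraries and at 78.0%, 121% and 101% in PBS libraries. The loss was therefore smaller for Dnmt1 and Ezh2 than for Mki67 in every K7M2-EV library. Mki67 had the largest fall of the mitosis list on the log2(FPKM + 1) scale. As a share of the PBS mean other mitosis genes fell further, among them Nusap1 (means of 0.447 FPKM with vesicles and 4.69 FPKM with PBS). The log2 differences of Dnmt1 (-0.83) and Ezh2 (-0.99) stood near the median of the replication list (-0.92), whose genes ranged from -2.25 to -0.46. Mitosis genes ranged from -2.37 to -1.02. Within each group the libraries fell in the same order for Ezh2 as for the mitosis sum, with replicate 2 highest. For Dnmt1 replicate 2 was highest with vesicles and replicate 3 with PBS, although the K7M2-EV libraries differed little. Kmt5a, whose protein is known to vary through the cell cycle, stood at 304%, 292% and 164% in K7M2-EV libraries and at 76.0%, 154% and 69.7% in PBS libraries, opposite to the cycle genes.

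**Figure D4:**
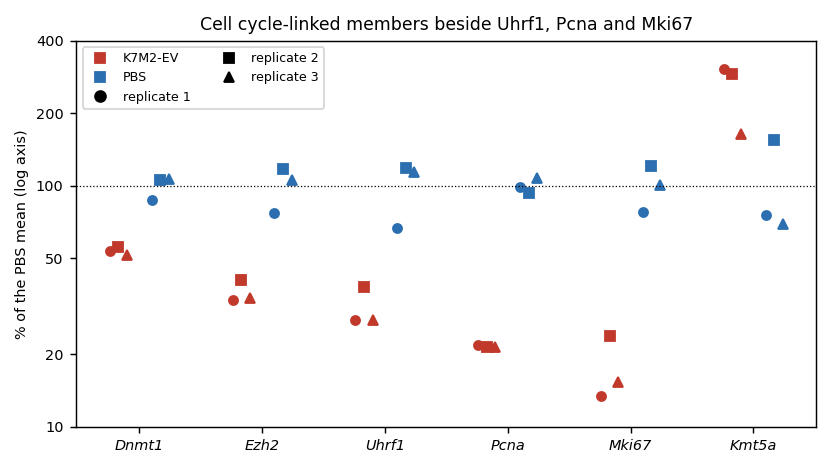
Level of Dnmt1, Ezh2 and Kmt5a beside the cycle genes Uhrf1, Pcna and Mki67, as a percentage of each gene's mean in PBS cultures on a log axis; K7M2-EV libraries are red and PBS libraries blue, and the marker shape gives the replicate. Pcna stood at 21.4% to 21.9% and Uhrf1 at 27.6% to 38.1% in K7M2-EV libraries, below Dnmt1 at 51.8% to 55.8%, while Kmt5a stood at 164% to 304%.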

How the data were processed

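RNA was sequenced from 6 libraries, 3 per group, grouped and numbered by their titles. The authors deposited a table of FPKM values for each library, with 26883 rows. Tools and build per the submitters' processing notes are, with no roles given, HISAT2 2.1.0, StringTie 1.3.4b, CASAVA 1.8, edgeR and GRCm38. No source used here gives the strand setting. A row without a value (1) and 47 repeats of a symbol (keeping the copy of highest mean) were left out, which left 26835 genes. Positions and exon lengths came from GENCODE M21 on GRCm38, matched for 99.5% of genes. FPKM times length fell near whole multiples of 1 step: within 0.1 of a whole number lay 72.4% to 73.5% of the values under about 20 reads, against 20% by chance. The step gave the implied read totals, and the counting error covers sampling of reads only.

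Genes were tested with limma 3.58.1 in R 4.3.3 with statmod 1.5.0 (eBayes, trend and robust) on log2(FPKM + 1), with no further scaling or block. Python 3.11.15 made tables and figures. The steps were tested on simulated data. The labels do not say whether the replicates came from separate animals, so p-values measure the spread between these libraries. Same-numbered libraries deviated together across genes (correlations 0.317, 0.294 and 0.209), and each K7M2-EV library correlated best with its own number. The numbers were therefore taken to pair the libraries, on the evidence of the values alone, and the number served as a block in an alternative fit.

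The genes and lists were chosen with earlier results of these data known. By a rule, library values are given for up to 3 genes called higher and 3 lower per class with the largest change, for Dnmt1, Ezh2 and the most abundant gene of each class, and up to 2 called genes in each direction are named per list. Genes named beyond it, such as Tet2, Kdm2a, Dnmt3b and Dnmt3l, were chosen after their values were seen. Fold ratios are of mean FPKM. One gene that this rule names is not reported here.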

Additional observations from a re-analysis of the deposited data

How the results depend on the processing

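After median-of-ratios scaling 12 enzyme genes were called higher and 16 lower, after quantile normalization 9 and 18 against 4 and 28 as reported. By class, median-of-ratios scaling gave 0 acetyltransferase genes lower, 1 arginine methyltransferase gene higher and 0 lower, 4 demethylase genes higher and 3 lower, 5 lysine methyltransferase genes higher and 4 lower, 1 sirtuin gene lower and 2 deacetylase genes higher, and in the partner lists 22 higher and 33 lower. Quantile normalization gave 1 acetyltransferase gene lower, 1 arginine methyltransferase gene higher and 0 lower, 3 lysine methyltransferase genes higher and 4 lower, 1 sirtuin gene higher and 1 lower, and in the partner lists 19 and 30. The one reversed value was Kmt5b after quantile normalization (0.0032, adjusted p = 0.973), and its cause was not tested. With no filter 1 DNA methyltransferase gene (Dnmt3l) was higher and 0 arginine methyltransferase genes were lower, as more genes are then tested. A pseudocount of 0.1 and eBayes without its trend and robust settings changed no enzyme gene's call, and a filter on the mean changed none of the 63 it tested but left Hdac9 untested (27 genes lower). In the fit with a replicate block 4 enzyme genes were higher and 26 lower. It ended the calls of Kmt2e and Kmt5b and changed no other enzyme gene's call.

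Leaving out single libraries gave 1772 to 2390 of all genes higher and 3296 to 4253 lower, 3 to 5 enzyme genes higher and 20 to 23 lower, 1 acetyltransferase gene lower, 0 to 1 arginine methyltransferase genes lower, 0 to 1 lysine methyltransferase genes higher and 5 to 6 lower, 2 to 3 demethylase genes higher and 5 lower, 1 to 2 sirtuin genes lower, 4 to 5 deacetylase genes lower, and 7 to 10 partner genes higher and 38 to 47 lower. Replication genes lower were 21 to 27 and mitosis genes 19 to 24. Leaving out both libraries of replicate 1, 2 or 3, an alternative added after seeing the data, gave in that order 1509, 2082 and 1283 of all genes higher and 2805, 3333 and 2186 lower. Enzyme genes were then 2, 7 and 3 higher and 16, 18 and 12 lower. Acetyltransferase genes lower were 1, 1 and 0, arginine methyltransferase genes 0, 1 and 0 higher and 0 lower each time, demethylase genes 2, 3 and 1 higher and 4, 5 and 2 lower. Lysine methyltransferase genes were 0, 2 and 1 higher and 4, 4 and 3 lower, sirtuin genes 1 lower each time, and deacetylase genes 0, 1 and 1 higher and 3, 4 and 3 lower. Partner genes were 7, 9 and 4 higher and 29, 35 and 15 lower, replication genes 24, 21 and 13 lower (of 24, 23 and 24 tested) and mitosis genes 19, 15 and 18 lower (of 19, 15 and 19 tested). Fewer libraries enter these fits, which leaves fewer degrees of freedom. Genes with a few implied reads per library, such as Kdm4d and Kdm5d (at most 3), are too shallow for a comparison.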
